A study of Mus musculus with 2 samples.

Results

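The 10 genes described here surround the BMP signal of mouse embryonic stem cells and were measured in cells given an siRNA against Set1a and in cells given a control siRNA. They are the 4 Id genes Id1, Id2, Id3 and Id4, the feedback inhibitors Smad6, Smad7 and Bambi, the ligand gene Bmp4, and the signal transducers Smad1 and Smad5. They were chosen by symbol and found through their RefSeq transcripts. Where a gene had several transcripts, the one with the highest summed value was taken. All 10 of the 10 were found among 22421 genes, and all 10 lay above the floor of 1 RPKM (reads scaled by transcript length and by library depth), set on the mean of both libraries.

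Both groups were CGR8 cells, an established mouse embryonic stem cell line, grown without feeder cells on gelatin in medium with serum and leukaemia inhibitory factor (LIF). No BMP is named among the additions to the medium, which does not show that the serum held none. The first group received a negative control siRNA and the other an siRNA against Set1a, in both cases by repeated transfection over 72 hours. Set1a, listed as Setd1a, encodes a methyltransferase that acts on lysine 4 of histone H3. Each group is 1 library, 2 in all, called the control library and the Set1a library below. Every difference compares these 2 libraries, no value has a replicate error, and no p-value is given.

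BMP proteins bind receptor pairs at the cell surface, which phosphorylate SMAD1 and SMAD5. These enter the nucleus with SMAD4 and switch on target genes, of which the Id genes are the best known. Id proteins carry a helix-loop-helix domain without a DNA-binding part, pair with E proteins and other bHLH factors, and so keep them from DNA. In embryonic stem cells grown with LIF, BMP signalling and the Id proteins are known for holding back neural differentiation. SMAD6, SMAD7 and BAMBI are made in response to the signal and dampen it.

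From the size of 1 read in low values, the control library held about 6620000 reads and the Set1a library 6390000, and a gene above the floor had a median of 168 control reads. Setd1a itself was at 14.2 RPKM in the control library against 11.97 RPKM in the Set1a library, which is a ratio of 0.846 with a 95% counting interval of 0.744 to 0.957. The difference in the targeted gene was in the direction of the label and small. Its log2 fold, with 1 RPKM added to each value, was -0.22. Of the 7941 genes averaging 5 RPKM or above, 1040 (13.1%) lay lower than Setd1a, so a decrease of this size was not rare. Whether it came from the siRNA was not tested. Counting intervals here are exact (Clopper-Pearson), computed from recovered reads. They cover counting error only and say nothing of the variation between cultures. The stem cell markers summed to 1979 RPKM in the control library against 1942 RPKM in the Set1a library, over 7 of 7 genes above the floor. Sox2, with a ratio of 0.875 (0.835 to 0.917), and Tfcp2l1, with 0.871 (0.837 to 0.907), were lower, and the intervals of the other 5 included 1. Of 8 fibroblast markers, 1 (Thy1) was above the floor, Col1a2, Postn and Dcn were at 0 in both libraries, and the list summed to 2.99 and 5.42 RPKM. Below the floor, Col1a1 had 3 and 14 reads, a ratio of 5.70 (1.35 to 26.2), and Pdgfrb 17 and 39 reads, a ratio of 2.38 (1.31 to 4.48). The 7 primitive endoderm markers summed to 2.28 and 2.69 RPKM and the 6 mesoderm markers to 0.94 and 1.66 RPKM, with 0 of them above the floor. Among these markers the interval excluded 1 for Kdr alone, a mesoderm marker with 5 and 15 reads and a ratio of 2.90 (1.07 to 10.9). Trophectoderm markers summed to 22.5 and 23.1 RPKM, with 4 of 7 above the floor and Cdx2 and Elf5 at 0 in both libraries; Eomes had a ratio of 1.48 (1.06 to 2.10) and Tfap2c of 0.815 (0.664 to 0.996). Neural markers summed to 33.0 and 36.6 RPKM, with 5 of 6 above the floor, 27.2 and 30.2 RPKM of it from Tubb3. These sums were higher in the Set1a library for each list but that of the stem cells, and their part in the results below was not tested.

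The Id genes did not move as a group. Id1 and Id3 were higher in the Set1a library, while Id2 and Id4 lay within counting error of their control values. Among the feedback inhibitors, Smad7 was higher, and the intervals of Smad6 and Bambi included a ratio of 1. The upstream genes Bmp4, Smad1 and Smad5 were each within counting error. As RNA was taken from whole cultures, a higher level in each cell and a larger number of cells with the transcript cannot be told apart.

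**Figure D1:**
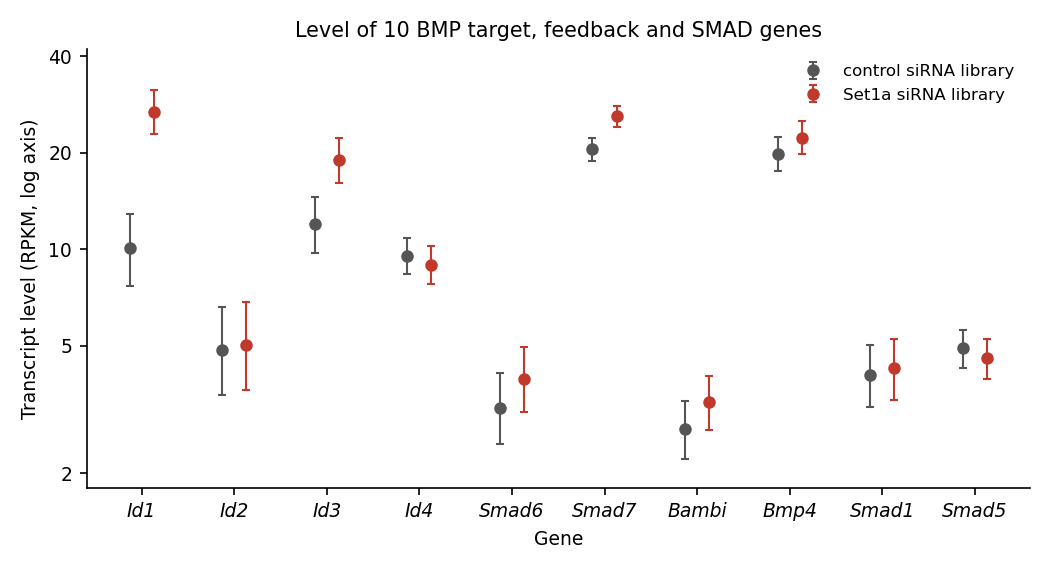
Transcript level in RPKM (log axis) of the 10 genes in the control library (grey) and the Set1a library (red). Each point is 1 library and each bar its 95% Poisson interval from the recovered reads; the bars of both libraries are clear of each other for Id1 (10.1 and 26.8 RPKM), Id3 (11.98 and 18.96 RPKM) and Smad7 (20.5 and 25.9 RPKM).

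The sequence before the start site is shown for Id3, Id2 and Id4, the Id genes found in the RefSeq promoter table (build GRCm38.p6), because their ratios between the libraries ranged from 0.938 for Id4 to 1.58 for Id3. The windows hold the 250 bases before the start site, 5′ to 3′ on the strand of the gene: chr4:136143572-136143821 on the plus strand, chr12:25096093-25096342 on the minus strand and chr13:48260866-48261115 on the plus strand. Capitals mark GGCGCC, a GC-rich element bound by SMAD1 and SMAD5 in BMP target promoters, which reads the same on both strands, and GTCT or its reverse complement AGAC, the short element bound by SMAD4. The 2 motifs cannot overlap.
Id3: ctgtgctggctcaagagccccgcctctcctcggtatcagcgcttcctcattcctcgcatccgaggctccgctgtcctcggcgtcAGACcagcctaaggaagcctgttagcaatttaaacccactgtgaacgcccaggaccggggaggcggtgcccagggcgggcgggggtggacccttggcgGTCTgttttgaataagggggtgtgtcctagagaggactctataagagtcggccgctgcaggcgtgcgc
Id2: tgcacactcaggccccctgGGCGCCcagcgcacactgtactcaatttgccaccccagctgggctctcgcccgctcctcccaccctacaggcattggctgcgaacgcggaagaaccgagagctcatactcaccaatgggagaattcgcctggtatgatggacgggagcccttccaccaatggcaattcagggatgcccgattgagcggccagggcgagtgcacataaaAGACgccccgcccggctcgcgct
Id4: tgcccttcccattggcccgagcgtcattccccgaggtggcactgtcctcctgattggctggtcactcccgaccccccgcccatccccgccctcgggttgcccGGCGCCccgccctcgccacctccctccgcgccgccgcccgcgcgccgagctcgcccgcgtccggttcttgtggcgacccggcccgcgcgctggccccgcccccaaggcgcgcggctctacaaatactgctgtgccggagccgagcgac

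The Id3 window held 2 copies of the SMAD4 element, AGAC at 166 and GTCT at 68 bases before the start site, and no GGCGCC. In the Id2 window GGCGCC began 231 bases before the start site and AGAC 23 bases before it. Id4 had GGCGCC at 148 bases and no SMAD4 element. Over all 32851 windows of the table, 9.59% held GGCGCC, 82.9% held GTCT on either strand and 7.06% held both. The median window held 2 copies of GTCT, counting both strands, the same number as that of Id3. GGCGCC was thus found at Id2 and Id4 and not at Id3, a description of these windows alone, as bases further upstream were not read. The GC content was 62.8% in the Id2 and Id3 windows and 75.6% in that of Id4. The shares over all windows were not matched for GC content. The ratios of Id2 and Id3 could not be separated. Windows were read for 7 of the 10 genes. None was listed for Id1, and windows on chromosome 18, where Smad7 and Bambi lie, were left out. Of the rest, 1 of the 3 Smad5 windows held GGCGCC, and those of Smad6, Bmp4 and Smad1 did not.

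Id1 was the member with the largest difference. Its level was 10.1 RPKM in the control library against 26.8 RPKM in the Set1a library, from 62 and 160 reads. This made a ratio of 2.67, and the counting interval ran from 1.98 to 3.65. With 1 RPKM added to each value the log2 fold was 1.33, past the rule of at least 2-fold that is used here for counting genes. By this rule 1 of the 10 members was higher and 0 were lower, against a background of 0.771% higher and 0.407% lower among all 11802 genes above the floor. In the 7941 genes that averaged 5 RPKM or more, 24 (0.302%) had a higher fold than Id1.

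Id3, whose protein also binds E proteins, was at 11.98 RPKM in the control library against 18.96 RPKM in the Set1a library, from 101 and 155 reads. Its ratio was 1.58 (1.23 to 2.06), short of 2-fold, and 102 of the 7941 genes (1.28%) had a higher fold. Id3 was thus higher as well, but by less than Id1: the ratio of Id1 divided by that of Id3 was 1.69, with an interval of 1.12 to 2.52.

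Id2 was the lowest of the 4 in both libraries, at 4.84 RPKM in the control library against 5.02 RPKM in the Set1a library, from 41 reads in each. Its ratio of 1.04 had an interval of 0.655 to 1.64, which holds the ratio of Id3, so a difference of that size was not detectable at this depth. Id4, which is known for a role in the nervous system, was at 9.50 and 8.91 RPKM from 242 and 219 reads. The ratio of Id4 was 0.938 (0.777 to 1.13), an interval that lies below those of Id1 and Id3. Dividing the ratio of Id1 by that of Id2 gave 2.57 (1.48 to 4.50), and by that of Id4 2.84 (1.99 to 4.10). Id3 over Id4 gave 1.69 (1.23 to 2.34), whereas Id2 against Id3, at 0.655 (0.383 to 1.11), could not be separated.

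The make-up of the Id family therefore differed between the libraries. Summed over the 4 genes, the level was 36.4 RPKM in the control library against 59.7 RPKM in the Set1a library. Id3 made up the largest share in the control library, at 32.9%, followed by Id1 at 27.6%, Id4 at 26.1% and Id2 at 13.3%. In the Set1a library Id1 made up 44.9%, Id3 31.7%, Id4 14.9% and Id2 8.4%. The share of Id3 was thus nearly level while those of Id2 and Id4 were smaller beside a larger Id1.

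**Figure D2:**
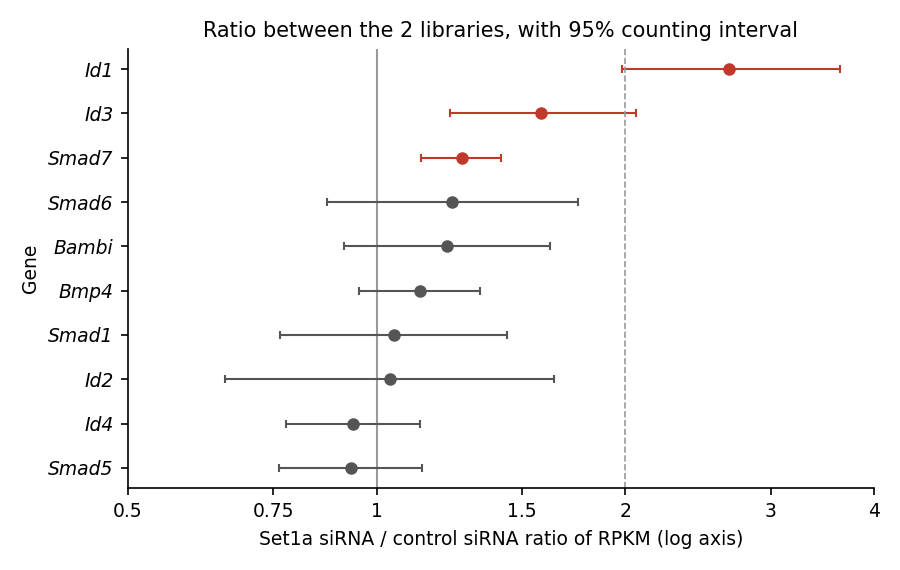
Ratio of the Set1a library to the control library in RPKM (log axis) for each of the 10 genes, ordered by size, with exact 95% counting intervals; the solid line marks a ratio of 1 and the dashed line 2. Red points have an interval that excludes 1: Id1 at 2.67, Id3 at 1.58 and Smad7 at 1.27.

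All 3 feedback inhibitors had ratios above 1, and of these Smad7 alone had an interval that excluded it. Smad7, which blocks the type I receptors of both the BMP and the TGF-β and Nodal branches, was at 20.5 RPKM in the control library against 25.9 RPKM in the Set1a library. It had the most reads of the 10 genes, 580 and 709, and the narrowest interval, with a ratio of 1.27 (1.13 to 1.42). Of the 7941 genes of at least 5 RPKM, 505 (6.36%) had a higher fold, so a value of this size was not rare.

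Smad6, an inhibitory SMAD that acts mainly on the BMP branch, was at 3.19 and 3.93 RPKM, from 63 and 75 reads. The ratio of Smad6, 1.23 (0.870 to 1.75), was close to that of Smad7. Bambi, which encodes a decoy receptor without a kinase domain, was at 2.74 and 3.34 RPKM from 92 and 108 reads, a ratio of 1.22 (0.912 to 1.62). These 3 ratios lay near each other, but after taking out the trend with GC and length, the log2 fold of Smad6 was 0.11, that of Smad7 0.25 and that of Bambi 0.23. The ratio of Smad7 over that of Bambi was 1.04 (0.763 to 1.42). The median log2 fold of the 3 inhibitors was 0.24, from 0.21 to 0.33, beside a median of 0.0063 over all genes above the floor, whose quartiles were -0.14 and 0.16.

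Bmp4, the ligand gene, was at 19.8 RPKM in the control library against 22.3 RPKM in the Set1a library, from 270 and 294 reads. The ratio was 1.13 (0.953 to 1.34). Smad1 was at 4.05 and 4.25 RPKM from 83 and 84 reads, a ratio of 1.05 (0.765 to 1.44). For both genes the data leave room for a difference of the size of that of Smad7. Smad5 was at 4.91 and 4.56 RPKM from 214 and 192 reads, with a ratio of 0.930 (0.761 to 1.14). Its other transcripts gave levels of 4.62 and 4.30 RPKM and of 4.82 and 4.45 RPKM, likewise a little lower in the Set1a library; transcripts of 1 gene share reads, so these are not separate measurements.

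Over the 10 genes, 8 were higher and 2 lower in the Set1a library, and the median log2 fold was 0.19. It was 0.116 with a pseudocount of 5 RPKM and 0.328 over the 5 genes left at a floor of 5 RPKM. Without Id1 the median of the other 9 was 0.165, with 7 higher. Among all genes above the floor 51.2% were higher. The counting interval lay above 1 for 3 of the 10 members and below 1 for 0, against a background of 12.1% above and 11.3% below among 11670 genes with a known transcript length. That share of all genes depends on their reads. Of the 45 possible pairs among the members, 15 had ratios that differed beyond counting error. Id1 differed in this way from each of the other 9, and 6 of the 36 pairs without Id1 did so. These 45 intervals were not adjusted for their number, and pairs that share a gene are not independent. The share among pairs drawn from all genes was not computed. The count of 15 therefore cannot be read as a trait of these members.

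**Figure D3:**
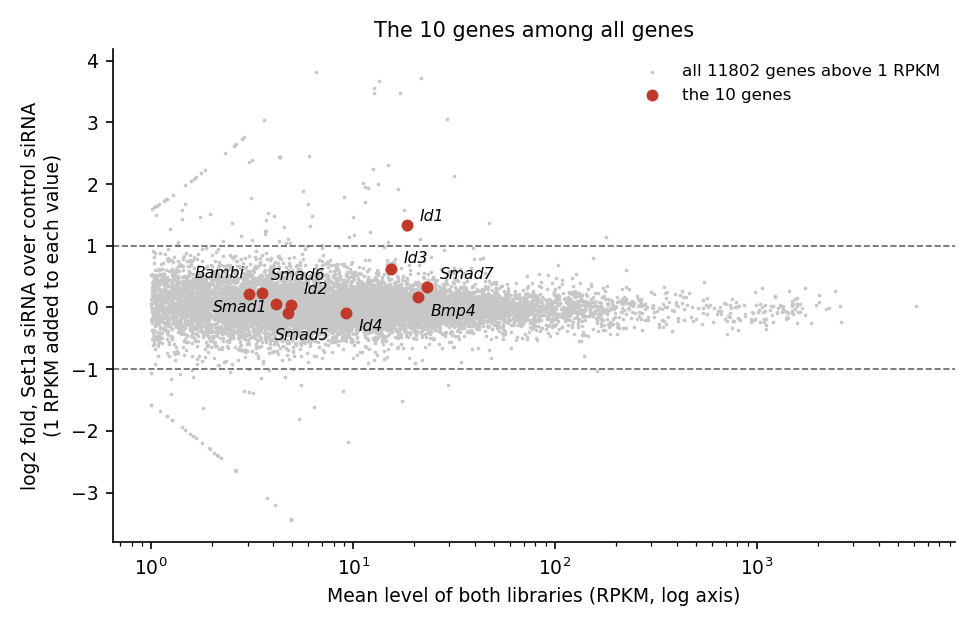
log2 fold (Set1a siRNA over control siRNA, 1 RPKM added to each value) against the mean level of both libraries in RPKM (log axis) for the 11802 genes above the floor (grey) and the 10 genes (red); dashed lines mark 2-fold either way. Id1, at 1.33, lies past the upper line, Id3 at 0.62 below it, and the other 8 between -0.09 and 0.33.

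The order of the levels, which RPKM allows to be compared between genes, changed at the top. In the control library Smad7 and Bmp4 led, and their levels differed by a factor of 1.04 (0.896 to 1.20). Id3, Id1 and Id4 followed at 9.50 to 11.98 RPKM, where no neighbours differed beyond counting error. The step from Bmp4 down to Id3 was 1.65 (1.31 to 2.10), and that from Id4 down to Smad5 was 1.94 (1.60 to 2.34). Smad5, Id2, Smad1, Smad6 and Bambi made up the low group, from 4.91 down to 2.74 RPKM, again with no neighbours apart. The ends of this group did differ, with intervals of 4.27 to 5.61 RPKM for Smad5 and 2.21 to 3.36 RPKM for Bambi. In the Set1a library Id1 stood at the head, level with Smad7 (factor 1.03, 0.865 to 1.23), and Smad7 was above Bmp4 (1.17, 1.01 to 1.34). Id3 lay next to Bmp4 there (1.17, 0.964 to 1.44), and the step below Id3 to Id4 was 2.13 (1.72 to 2.63). Id1 thus stood level with Smad7 in this library, and Id3 next to Bmp4. Id3, with an interval of 16.1 to 22.2 RPKM, lay below Smad7 (24.1 to 27.9 RPKM) and Id1 (22.8 to 31.3 RPKM). In the control library Id3 and Id1 were next to each other, followed by Id4. The low group held the same 5 genes in both libraries.

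The genes with a log2 fold closest to that of Id1, over 2 libraries and among 7800 genes of at least 5 RPKM and 200 nucleotides, were Serpine2, Gm7102 and Peg10. Serpine2, a secreted serine protease inhibitor gene, was at 3.07 and 9.17 RPKM, 0.011 from Id1 on the log2 scale, and it reached the mean of 5 RPKM through its Set1a value. Gm7102 was at 25.9 and 68.7 RPKM and Peg10, an imprinted gene, at 10.4 and 26.1 RPKM. With 2 libraries this likeness is a ratio alone.

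The rest of the BMP pathway did not lean one way. Of 64 other ligands, receptors, SMADs, inhibitors, antagonists and targets, 33 were above the floor, of which 17 were higher and 16 lower, with a median log2 fold of 0.05. None passed 2-fold with 1 RPKM added. The counting interval lay above 1 for 4 of them and below 1 for 5, close to the shares among all genes given above.

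Among the ligands, 5 of 13 were above the floor. Bmp7, whose protein can pair with BMP4, was at 0.611 and 1.82 RPKM from 15 and 43 reads, a ratio of 2.98 (1.62 to 5.75), and it passed the floor through its Set1a siRNA value. Bmp8b, of the germ cell pathway in the early embryo, went the other way, at 2.45 and 1.01 RPKM from 48 and 19 reads, a ratio of 0.410 (0.228 to 0.711). Gdf3, a TGF-β family gene of pluripotent cells, was the highest of the list at 42.9 and 41.6 RPKM, with an interval that included 1. Both ligand genes with differing levels were thus low beside Gdf3 and Bmp4.

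Of the receptors and co-receptors, 8 of 10 were above the floor, 5 higher and 3 lower. Eng, which encodes the co-receptor endoglin, was at 4.78 RPKM in the control library against 9.44 RPKM in the Set1a library, from 108 and 205 reads. Its ratio was 1.98 (1.55 to 2.51). Bmpr2, the type II BMP receptor gene, was at 2.74 and 3.38 RPKM, giving a ratio of 1.23 (1.03 to 1.47). Bmpr1a, the most abundant type I receptor gene of the list, was at 10.6 and 11.6 RPKM and Acvr2b at 11.3 and 9.06 RPKM, and the intervals of both included 1. Besides Smad1 and Smad5, the SMAD genes were also close: Smad4, the shared partner, was at 17.3 and 19.1 RPKM, giving a ratio of 1.10 (0.958 to 1.27), and Smad2, of the Nodal branch, at 10.8 and 11.7 RPKM, giving a ratio of 1.08 (0.958 to 1.21).

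Inside the cell, all 12 listed inhibitors were above the floor, 7 higher and 5 lower, and Smad7 was the 1 whose interval excluded 1. The most abundant were Fkbp1a, which keeps type I receptors silent, at 70.1 and 75.8 RPKM, and the phosphatase gene Ctdsp2, at 37.8 RPKM in both libraries. Of 16 secreted antagonists and related genes, 5 were above the floor, 1 higher and 4 lower, with a median log2 fold of -0.27. These 5 are too few to read against the 51.2% of all genes that were higher. Dand5, 1 of the 5, had no known length and so no interval. Fstl1 was at 36.5 and 30.0 RPKM, giving a ratio of 0.824 (0.746 to 0.908), and Cer1, which binds BMP and Nodal, at 2.07 and 0.894 RPKM from 24 and 10 reads, a ratio of 0.432 (0.184 to 0.936). Cer1 passed the floor through its control value. Twsg1 was at 18.1 and 18.8 RPKM. The classical antagonist genes Nog and Chrd were below the floor, and Grem1 was at 0 in both libraries; these 3 were named after their values were seen.

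Of 14 other target genes of BMP, 4 were above the floor. Dusp9, which encodes a phosphatase of ERK kinases and is a known BMP target in embryonic stem cells, was at 36.2 RPKM in the control library against 53.9 RPKM in the Set1a library. With 653 and 938 reads its ratio was 1.49 (1.34 to 1.65), of the size of Id3. Tbx3 was at 42.6 and 45.1 RPKM, giving a ratio of 1.06 (0.981 to 1.14). Junb, at 19.9 and 16.2 RPKM, had a ratio of 0.811 (0.666 to 0.986), and Prdm1, a gene of germ cell specification, was at 7.86 and 5.54 RPKM, giving a ratio of 0.705 (0.569 to 0.881). Of these 4, the interval lay above 1 for 1 and below 1 for 2, beside 12.1% and 11.3% of all genes, and a list of 4 is too short to read against those shares.

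**Figure D4:**
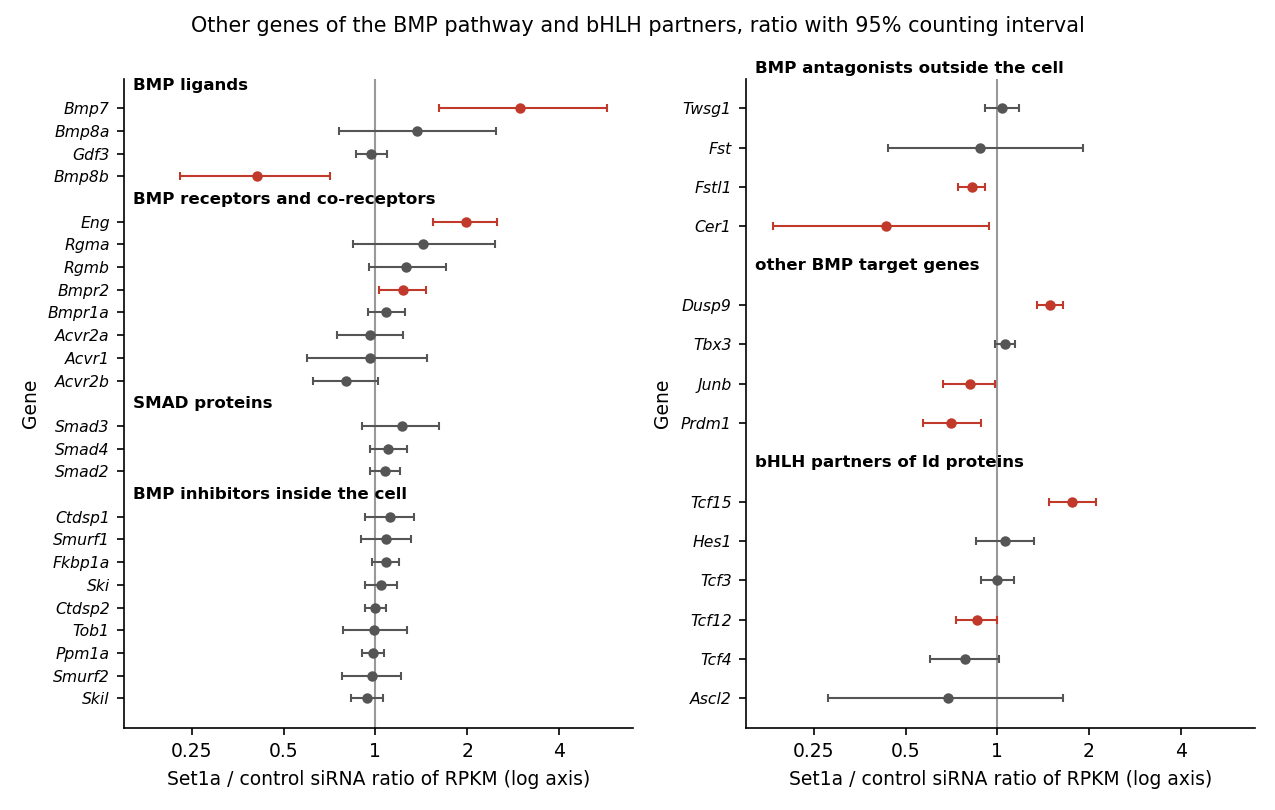
Ratio of the Set1a library to the control library in RPKM (log axis) for 38 other genes above the floor, by role, with exact 95% counting intervals; red marks intervals that exclude 1. Eng (1.98), Bmp7 (2.98), Dusp9 (1.49) and Tcf15 (1.76) are the larger differences to the right, and Bmp8b (0.410) and Cer1 (0.432) to the left.

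The factors that Id proteins bind were measured as well. Of 11 listed bHLH genes, 6 were above the floor, 2 higher and 4 lower. Tcf3, the E protein gene also called E2A, was at 25.8 RPKM in both libraries. Tcf12, another E protein gene, was at 9.0 and 7.71 RPKM, giving a ratio of 0.856 (0.734 to 0.998). Tcf15, a bHLH gene of pluripotent cells that leave the naive state, was at 31.8 RPKM in the control library against 56.0 RPKM in the Set1a library, from 206 and 351 reads. The ratio of Tcf15 was 1.76 (1.48 to 2.11), higher like Id1 and Id3.

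Nodal signalling runs through SMAD2 and SMAD3 and has its own feedback genes. Lefty1, a secreted Nodal inhibitor gene, was at 95.2 RPKM in the control library against 75.2 RPKM in the Set1a library, which is a ratio of 0.791 (0.719 to 0.868). Lefty2 was at 97.4 and 85.4 RPKM, giving a ratio of 0.877 (0.815 to 0.943). Both were lower, unlike the feedback gene Smad7 and the BMP targets Id1 and Id3 but like the BMP targets Junb and Prdm1. Id2 and Id4 were within counting error. Nodal itself was at 30.9 and 35.5 RPKM, giving a ratio of 1.15 (1.01 to 1.32), and its co-receptor gene Tdgf1 at 517 and 566 RPKM, giving a ratio of 1.09 (1.06 to 1.13). Of the 9 genes of this list 7 were higher, and the median log2 fold was 0.15.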

How the data were processed

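RNA-seq of CGR8 cells was analysed from the tables the authors deposited, 1 per library, each with 28430 RefSeq transcripts and 1 value. The unit is not named in the files. RPKM was inferred from the deposited values, since value times length clusters at whole reads: of values of 1 to 5 reads, 75.0% (control siRNA) and 74.1% (Set1a siRNA) lay within 0.1 of a whole read, against 20% at random. The tools used were TopHat, TopHat2 2.0.12, SAMtools 0.1.16 and CASAVA, with build mm9, per the submitters' processing notes, which give no roles. How reads were counted, and whether by strand, is not given in the sources used here, so reads of overlapping and antisense genes cannot be told apart.

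Symbols came from a GRCm38.p6 RefSeq table and GENCODE M21 (98.3% of transcripts), and lengths and GC content from GENCODE M21. As these differ from the authors' annotation, recovered read numbers are approximate. Folds were the log2 of the Set1a value plus 1 RPKM over the control value plus 1 RPKM, a scale on which low genes change less than their ratio; ratios are of the deposited RPKM. Ratios of 2 members' ratios have exact conditional intervals. Genes were counted by size, at least 2-fold, since 1 library a group allows no test. Named were all 10 members, pathway genes above the floor whose interval excludes 1, and the 2 most abundant of each list. Members and lists were chosen with earlier results of these data known. Scripts (Python 3.11.15, scipy 1.17.1) were tested on simulated counts. Alternatives varied the pseudocount, floor, scaling, transcript choice, GC and length trend and fold rule.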

Additional observations from a re-analysis of the deposited data

How the results depend on the processing

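No paired analysis was possible because there was 1 library per group. Settings varied the pseudocount, floor, scaling, transcript choice and the GC and length trend, and each of the 10 genes kept its sign throughout. A pseudocount or a floor cannot turn a sign. Transcript choice could act on Smad5 alone, the only member with several transcripts. The log2 fold of Id1 ranged from 1.08 to 1.41, that of Id3 from 0.50 to 0.66 and that of Smad7 from 0.25 to 0.34. Scaling factors were within 0.5% of 1 and could not have turned a sign. For the members other than Smad5, only removal of the GC and length trend could have done so. Smad6 came to 0.11 with the GC and length trend removed, where Id1 was at 1.34. With a 1.5-fold rule 2 members (Id1 and Id3) were higher, and with a 3-fold rule 0. The numbers of all genes higher and lower, 91 and 48, were 177 and 95 with a pseudocount of 0.1 RPKM, 37 and 10 with one of 5 RPKM, 34 and 8 at a floor of 5 RPKM, 327 and 206 under the 1.5-fold rule, and 53 and 29 under the 3-fold rule; without a floor they were 133 and 77. A higher pseudocount, floor or fold rule counts fewer genes by definition. The median of all genes, 0.0063, was 0.0139 without a floor, -0.0027 at 5 RPKM and 0 under median-of-ratios scaling. The 0 follows from that scaling, which divides by the median ratio of these genes. The cause of the other shifts in the median was not tested. At a floor of 5 RPKM, 5 of the 10 genes were left. Depth limits the members with few reads, such as Id2 with 41 in each library.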

Other observations

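Of the 64 other BMP pathway genes, 31 lay below the floor of 1 RPKM. In this low range 8 were at 0 in both libraries, and the counting interval lay above 1 for 2, Acvrl1 and Msx2, and below 1 for 0, beside 4.09% above and 1.32% below among all 5134 genes with at least 1 read under the floor. Both were named after their values were seen. Msx2, a homeobox gene and a known BMP target, had 7 control and 24 Set1a reads, at 0.417 and 1.51 RPKM, a ratio of 3.63 (1.48 to 9.76). Acvrl1, a type I receptor gene that works with the co-receptor endoglin, had 15 and 30 reads, at 0.622 and 1.29 RPKM, a ratio of 2.07 (1.08 to 4.14). Eng, the endoglin gene, was higher too. The targets Msx1 and Atoh8 had 4 and 1 reads in each library, so a difference was not detectable at this depth.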
